A study of Mus musculus with 6 samples.

Results

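Guanylate-binding proteins (GBPs) and immunity-related GTPases (IRGs) were examined in the spinal cord of SOD1G93A mice, which carry a mutant human superoxide dismutase 1 transgene and model amyotrophic lateral sclerosis. The group holds 10 genes, listed by symbol at a time when earlier results of these data were known. They are the 6 GBP genes Gbp2, Gbp3, Gbp5, Gbp6, Gbp7 and Gbp9, and the 4 IRG genes Irgm1, Irgm2, Igtp and Iigp1. Other genes of these families are described further below. All 10 were among the 28162 genes of the deposited table, and all 10 passed the filter on low values that left 17480 genes for testing. The tested mice had been injected intrathecally on postnatal day 74 with an adeno-associated virus carrying the gene of neuron-derived neurotrophic factor (AAV-NDNF), and the controls had received the same kind of virus with green fluorescent protein (AAV-GFP). Polyadenylated RNA of the ventral lumbar cord was sequenced on day 104, with 3 libraries, labelled as biological replicates, in each group. Both groups carried the SOD1G93A genotype and both had been given virus, so no group lacked the mutant transgene or the vector. The sources used here give neither the promoter of the vector nor the sex or background strain of the mice.

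GBPs and IRGs are GTPases that cells make in quantity when interferon gamma, and to a lesser degree type I interferons, bind their receptors. Interferon gamma acts mainly through gamma-activated sites in promoters, whereas type I interferons act mainly through interferon-stimulated response elements. In mice the GBPs coat the vacuoles of parasites and the surface of cytosolic bacteria and feed the inflammasome pathway, while the IRGs divide into effectors that disrupt parasite vacuoles and regulators that keep those effectors off the cell's own membranes. In nervous tissue microglia, astrocytes and endothelial cells can all make them once interferon is present.

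The genes lie in clusters of related copies. Gbp5 (chr3:142493978-142522344), Gbp7 (chr3:142530342-142550149), Gbp3 (chr3:142560026-142573209) and Gbp2 (chr3:142620602-142638008) follow each other on the plus strand of chromosome 3. Gbp9 (chr5:105077630-105139539) and Gbp6 (chr5:105270702-105293698) lie on the minus strand of chromosome 5. Irgm1 (chr11:48861968-48871683, minus strand) lies apart from Igtp (chr11:58199556-58207591) and Irgm2 (chr11:58199618-58222782), whose plus-strand annotations overlap, and Iigp1 is on chromosome 18. All of them are protein-coding in the GENCODE M21 annotation of mm10, from which these positions come.

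The copies differ in how much transcript sequence they share. Shared sequence was searched in stretches of 75 bases, a length set for the search. How far the reads of these libraries tell the copies apart was not tested. Of all distinct 75-base stretches in the annotated Gbp6 transcripts, 67.3% also occurred in transcripts of other genes, so counts of Gbp6 are uncertain. The part shared with Gm43302 was 61.7% and that with Gbp10 was 40.4%. The annotation of Gm43302, a gene absent from the deposited table, overlaps those of Gbp6 and Gbp10 on the same strand. The part shared with Gm43302 can therefore be the same genomic bases rather than a copy. The shared part was 11.3% for Gbp7, mainly with the processed pseudogene Gm43802, whose annotation likewise overlaps that of Gbp7 on the same strand. It was 7.80% for Igtp and 4.78% for Irgm2, which share transcript sequence with each other. For Gbp9, whose annotation overlaps those of Gbp4 and Gbp8 on the same strand, it was 3.61%. Gbp3 shared 2.06%, Gbp2 0.955% and Gbp5 0.578%, and Irgm1 and Iigp1 shared 0%. The sources used here do not say whether reads that match several genes were kept or whether strand was used.

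Promoter sequences, 250 bases before to 50 after an annotated start (RefSeq, GRCm38.p6), were at hand for 7 of the 10 genes, with 2 starts for Gbp3. They are shown because cores of both elements named above were searched in them. The core of the interferon-stimulated response element was searched as GAAANNGAAA on both strands, and that of the gamma-activated site as TTCNNNGAA, which reads the same on both strands. A GAAANNGAAA match occurred in at least 1 promoter of 7 of 7 genes, against 3.44% of 32851 mouse promoters of the same length. A TTCNNNGAA match occurred at 4 of the 7 genes (Gbp5, Gbp7, Irgm2 and Igtp), against 8.30% of promoters. A match is a description of the letters and does not show that a factor binds. RefSeq starts can differ from the gene limits given above. The start used for Irgm2, alone among the 7 genes, matched no GENCODE transcript. The 80 bases that end 15 bases past the GAAANNGAAA match nearest the start are printed 5′ to 3′ on the strand of the gene, with the matches of either core in capitals (on the opposite strand GAAANNGAAA reads TTTCNNTTTC). For Gbp5 the TTCNNNGAA matches lie outside the printed stretch.
Gbp2, chr3:142620549-142620628, plus strand: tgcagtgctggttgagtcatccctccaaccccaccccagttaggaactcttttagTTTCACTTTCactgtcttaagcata
Gbp3, chr3:142559950-142560029, plus strand: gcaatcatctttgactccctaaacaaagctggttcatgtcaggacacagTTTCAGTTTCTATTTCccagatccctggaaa
Gbp5, chr3:142496714-142496793, plus strand: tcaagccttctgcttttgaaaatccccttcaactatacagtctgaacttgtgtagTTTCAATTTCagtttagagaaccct
Gbp7, chr3:142530228-142530307, plus strand: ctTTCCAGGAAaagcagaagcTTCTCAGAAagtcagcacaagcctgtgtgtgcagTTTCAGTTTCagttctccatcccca
Irgm1, chr11:48871420-48871499, minus strand: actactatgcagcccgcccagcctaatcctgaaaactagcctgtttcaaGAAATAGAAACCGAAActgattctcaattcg
Irgm2, chr11:58214858-58214937, plus strand: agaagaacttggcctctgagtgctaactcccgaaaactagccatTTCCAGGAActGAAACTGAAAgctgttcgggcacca
Igtp, chr11:58199467-58199546, plus strand: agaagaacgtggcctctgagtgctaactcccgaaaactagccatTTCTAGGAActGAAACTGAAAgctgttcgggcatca

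In Gbp3 and Irgm1 a pair of overlapping GAAANNGAAA matches formed a run of 3 repeats, beginning 45 and 30 bases before the start, and 0.225% of all promoters hold 2 or more such matches. The printed stretches of Igtp and Irgm2 were identical at 77 of 80 bases. In both, the TTCNNNGAA match began 11 bases before the GAAANNGAAA match, an arrangement found in 5 of the 32851 promoters. The promoter of Tgtp1, another IRG gene of chromosome 11, was another of these 5. Its start, like that of Irgm2, matched no GENCODE transcript. Its 80 bases matched those of Igtp at 41 positions, among them the run aaactagccat directly before the TTCNNNGAA match. Whether the arrangement arose separately in these genes was not tested. The spacing was looked for after these sequences had been seen.

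**Figure D1:**
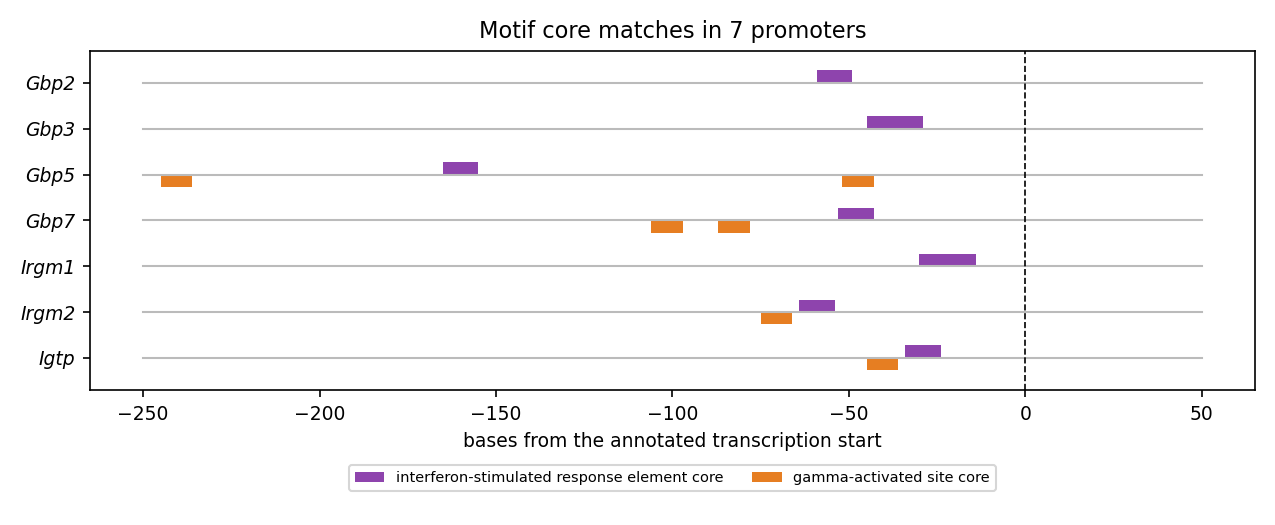
Positions of motif core matches (boxes) in 7 promoters, as bases from the annotated transcription start (dashed line); purple boxes are GAAANNGAAA on either strand and orange boxes TTCNNNGAA. For Gbp3 the start that holds matches is drawn. The purple boxes lie within 65 bases before the start in 6 genes and begin 165 bases before it in Gbp5.

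Below, values are read counts that the authors normalized by 1 size factor per library, and a log2 fold change is the AAV-NDNF minus the AAV-GFP mean of log2(value + 1), fitted with limma. The whole reads recovered from these values came to between 15335789 and 20060987 per library, and each of the 10 genes had at least 10 reads in every library. The delivered gene, Ndnf, stood at 5286, 7077 and 674 in AAV-NDNF libraries 1 to 3, against 171, 128 and 158 in AAV-GFP libraries 1 to 3. AAV-GFP library 2 stood apart from the other controls. Its summed level of 7 dorsal horn neuron markers was 383, against 548 to 830.3 in the AAV-NDNF libraries and 898 and 852 in the other controls. The summed level of 4 oligodendrocyte markers in AAV-GFP library 2 was 605207, the highest of the 6 libraries, whose others lay between 428918 and 488054. These markers' part in the results below was not tested, and results are given with and without that library where it decides them.

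All 10 transcripts had lower means after AAV-NDNF than after AAV-GFP, and none of the differences passed the test over all genes. Ratios of group means ran between 0.381 for Gbp6 and 0.721 for Gbp2. In limma 0 of 10 were called at a Benjamini-Hochberg adjusted p under 0.05, where 0 of 17480 genes were called in either direction, and the smallest adjusted p of any gene was 0.214. At an unadjusted p under 0.05, 3 of 10 were lower (Gbp3, Irgm1 and Gbp9) and 0 higher, against 3.53% of all genes lower and 1.15% higher. The median log2 fold change of the 10 was −0.74, against a median of 0.00083 over all genes tested. All 10 fold changes were below 0, as were 49.9% of those of all genes.

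In the GBP cluster of chromosome 3, Gbp3 had the clearer difference between the groups and Gbp2 the smallest of the 10. Gbp2, a GBP that carries a lipid anchor and is needed in mice to restrict Toxoplasma, stood at 511, 348 and 244 in the AAV-NDNF libraries, against 661, 202 and 668 in the AAV-GFP libraries. Gbp3, a neighbour that takes part in caspase-11 responses to cytosolic bacteria, stood at 296, 305 and 204 in the AAV-NDNF libraries, against 629, 276 and 668 in the AAV-GFP libraries. AAV-GFP library 2 was the lowest of the 6 for Gbp2, whereas for Gbp3 it lay among the AAV-NDNF libraries, so both pairs of groups overlapped. Gbp3 averaged 268 ± 56.1 after AAV-NDNF and 524 ± 216 after AAV-GFP (SD, n = 3 each), with a log2 fold change of −0.88 (SE 0.30, limma adjusted p = 0.878). Gbp2 averaged 368 ± 135 after AAV-NDNF and 510.2 ± 267 after AAV-GFP, with a log2 fold change of −0.35 (SE 0.50, limma adjusted p = 0.997). The unadjusted 95% interval of Gbp2 ran between −1.54 and 0.85, which includes differences in either direction.

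For the other pair on chromosome 3 and the pair on chromosome 5, AAV-GFP library 2 again lay among the AAV-NDNF libraries. Gbp5, which promotes NLRP3 inflammasome assembly in mice, stood at 194, 159 and 102 after AAV-NDNF, against 255, 110.4 and 283 after AAV-GFP. Gbp7, linked in mouse macrophages to assembly of the phagocyte oxidase, stood at 268, 249 and 146 after AAV-NDNF, against 381, 177 and 477 after AAV-GFP. For both, AAV-GFP library 2 lay between AAV-NDNF libraries 2 and 3. Gbp9 stood at 195, 124 and 87.6 after AAV-NDNF, against 285, 149 and 322 after AAV-GFP, with a log2 fold change of −0.89 (SE 0.33, limma adjusted p = 0.948). Gbp6 was the least abundant of the 10 and had the largest part of its transcript sequence shared with other annotated genes. It stood at 51.3, 28.2 and 11 after AAV-NDNF, against 96.4, 24.4 and 116 after AAV-GFP. Gbp6 also had the lowest log2 fold change of the 10, −1.33 (SE 0.63, limma adjusted p = 0.997), and its AAV-GFP library 2 lay between AAV-NDNF libraries 2 and 3. Log2 fold changes of Gbp5 and Gbp7 were −0.45 and −0.57.

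Among the IRG genes only Irgm1 had an unadjusted p under 0.05. Irgm1, a regulator found on the Golgi, lysosomes and mitochondria whose loss in mice harms lymphocytes and autophagy, stood at 426, 309.7 and 269 after AAV-NDNF, against 820.4, 352 and 935 after AAV-GFP. AAV-NDNF libraries 2 and 3 lay below every control, and AAV-NDNF library 1 lay above AAV-GFP library 2 and below the other controls. Irgm1 averaged 335 ± 81.5 after AAV-NDNF and 702 ± 309 after AAV-GFP (SD, n = 3 each), a log2 fold change of −0.97 (SE 0.33, limma adjusted p = 0.902). Irgm2, a Golgi regulator, stood at 425, 262 and 151 after AAV-NDNF, against 481, 207 and 579 after AAV-GFP. Igtp (also called Irgm3), a regulator of the endoplasmic reticulum and lipid droplets, stood at 381, 146 and 108 after AAV-NDNF, against 487, 102 and 419.8 after AAV-GFP. Both of these had a log2 fold change of −0.59, with unadjusted 95% intervals between −1.65 and 0.47 for Irgm2 and between −2.31 and 1.13 for Igtp, so these too included differences in either direction. Iigp1 (also called Irga6), an effector that loads onto parasite vacuoles, stood at 261, 262 and 71.2 after AAV-NDNF, against 609, 105 and 669.7 after AAV-GFP. Its log2 fold change of −1.04 had an SE of 0.85 (limma adjusted p = 0.997), the widest of the 10.

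**Figure D2:**
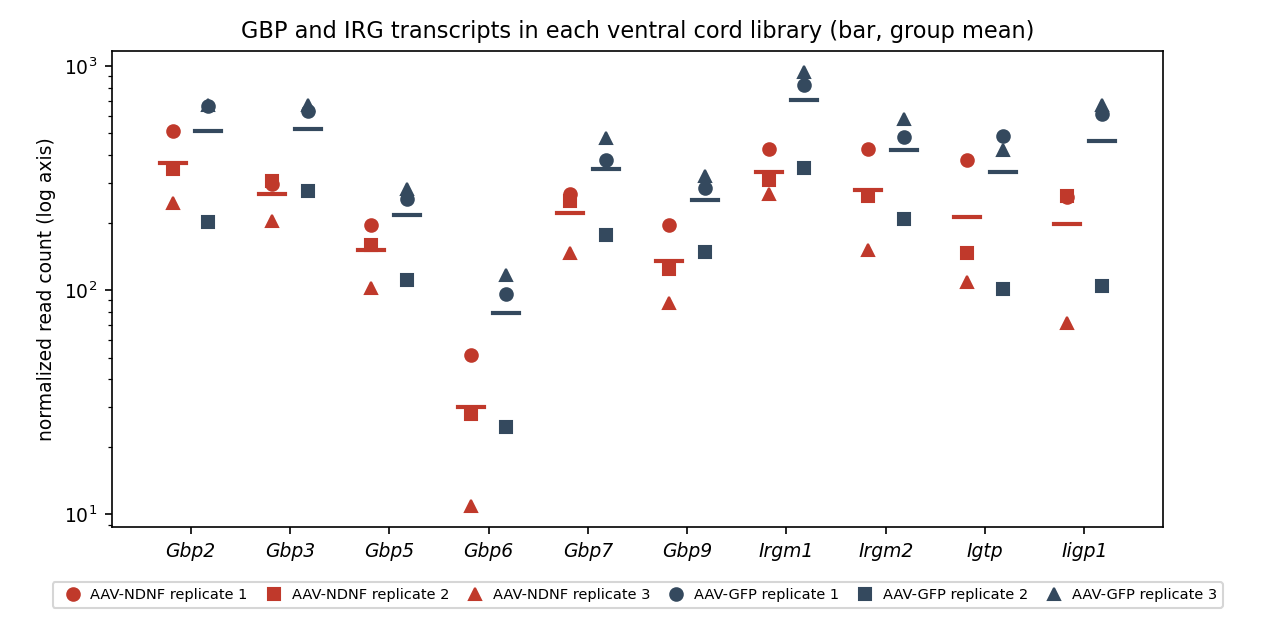
Normalized read count (log axis) of the 10 genes in each library, AAV-NDNF in red left of AAV-GFP in dark blue; circles, squares and triangles are replicates 1, 2 and 3, and bars are group means. In every gene AAV-GFP library 2 (dark square) lies far below the other controls and within or under the AAV-NDNF range, as in Iigp1 with 105 against 609 and 669.7.

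No gene separated the groups library by library. The groups did not overlap in 0 of 10, where every AAV-NDNF library lay below every control in 5.50% of all genes tested. The overlap came through 1 control in each case: AAV-GFP library 2 was the lowest control for 10 of 10 genes, as it was for 39.8% of all genes. Its value was between 16.4% (Iigp1) and 49.0% (Gbp9) of the mean of the other controls. All 3 AAV-NDNF libraries lay below both other controls for 10 of 10 genes, against 10.5% of all genes, a count that sets aside the control that was low and so carries no test. AAV-NDNF library 3, the library with the least Ndnf of its group, was the lowest AAV-NDNF library for 10 of 10 genes, as it was for 39.8% of all genes. It was the lowest of all 6 libraries for 8 of the 10, a count not made over all genes. Exact two-sided permutation tests of single genes over the libraries gave p between 0.2 and 0.6, where the design allows no p below 0.1.

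Single libraries decided how large the difference was. Without AAV-GFP library 2 the median log2 fold change of the 10 genes was −1.26, and 10 of 10 had an unadjusted p under 0.05 (3.38% of all genes lower). In that fit 2 of 10 fell at an adjusted p under 0.05, Irgm1 with a log2 fold change of −1.41 (limma adjusted p = 0.0323) and Gbp3 with −1.29 (limma adjusted p = 0.0341), where 0.246% of all genes were called lower. Leaving out the control with the lowest values enlarges such a difference by construction. Without AAV-NDNF library 3 the median was −0.36 and 0 of 10 had an unadjusted p under 0.05 (4.45% of all genes lower), and without AAV-GFP library 3 they were −0.44 and 0 of 10 (2.35%). Without AAV-GFP library 1, 1 of 10 had an unadjusted p under 0.05 (2.19%), without AAV-NDNF library 1, 3 of 10 (5.55%), and without AAV-NDNF library 2, 2 of 10 (2.56%). Without AAV-NDNF library 1 the groups did not overlap for 2 of 10 genes, Gbp9 and Irgm1, against 13.3% of all genes lower.

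**Figure D3:**
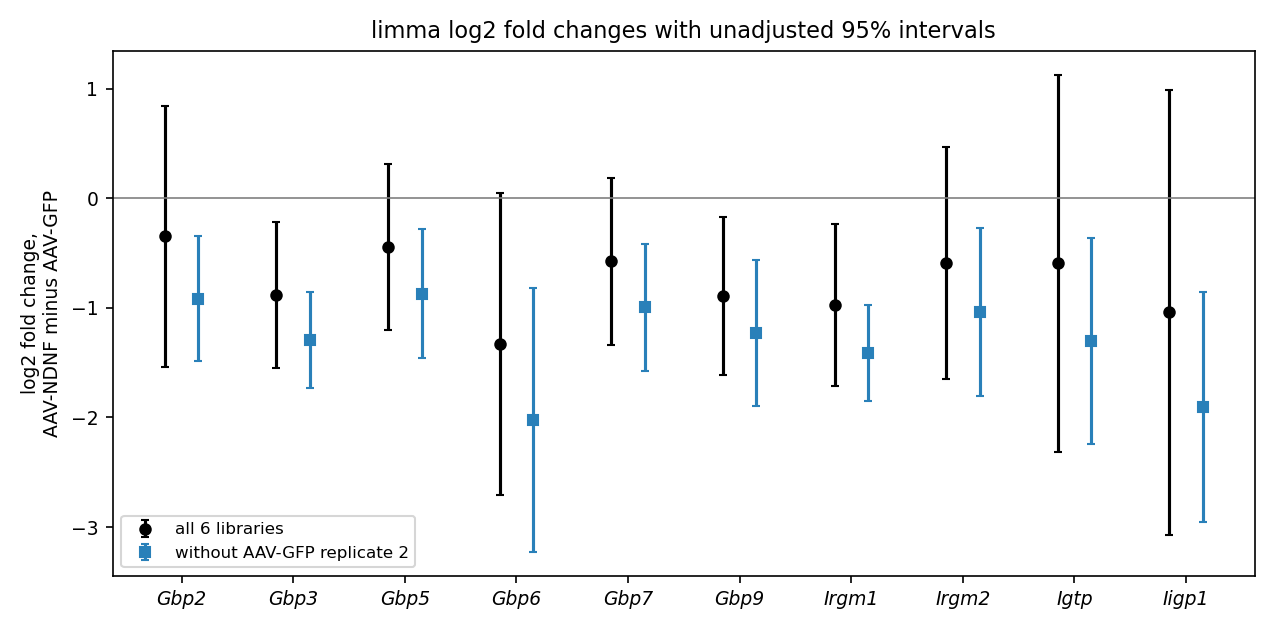
Log2 fold change (AAV-NDNF minus AAV-GFP, limma) of the 10 genes with unadjusted 95% intervals, from all 6 libraries (black circles) and without AAV-GFP library 2 (blue squares). With all libraries the intervals of Gbp3, Gbp9 and Irgm1 lie below 0, and without that library those of all 10 genes do.

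The tests on reads gave like values. With edgeR's quasi-likelihood test on the recovered reads, 4 of 10 had an unadjusted p under 0.05 (Gbp3, Gbp6, Gbp9 and Irgm1), against 3.56% of all genes lower, and the smallest adjusted p was 0.594, for Irgm1. With DESeq2 on the recovered reads 5 of 10 did (3.40% of all genes lower). The authors' deposited table, also from DESeq2, lists 5 of 10 with an unadjusted p under 0.05 (those 4 and Gbp7), where it lists 2.20% of its genes as lower at that limit. At an adjusted p under 0.05 the authors' deposited table lists none of the 10 (0 of 10), and 0.246% of its genes with an adjusted p as lower. Nearest to that limit in the authors' deposited table were Irgm1, with a log2 fold change of −1.07 and an adjusted p of 0.0608, and Gbp3, with −0.97 and 0.136.

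The 10 genes did not share 1 profile over the AAV-NDNF libraries. For Igtp, Irgm2 and Gbp2, AAV-NDNF library 1 stood at 113%, 100.5% and 100.2% of the control mean. For Irgm1, Iigp1 and Gbp3 the same library stood at 60.7%, 56.6% and 56.5%. The range within AAV-NDNF was 3.51-fold for Igtp and 1.50-fold for Gbp3. AAV-NDNF library 1 exceeded AAV-NDNF library 2 in 8 of 10 genes, the others being Gbp3 and Iigp1. It did so in 13 of 16 tested interferon gamma targets (such as Tap1 and Cd274), in 2 of 20 type I interferon targets and in 49.9% of all genes tested. No test was made of these counts, since each rests on 1 library against another.

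Compared per kilobase of annotated exon, the 10 transcripts spanned a wide range. Gbp2 was at 146 ± 53.5 normalized reads per kilobase after AAV-NDNF and 203 ± 106 after AAV-GFP, and Gbp6 was at 5.06 ± 3.40 after AAV-NDNF and 13.3 ± 8.13 after AAV-GFP (SD, n = 3 each). By the mean level per kilobase over all 6 libraries the order was Gbp2, Igtp, Gbp3, Irgm2, Irgm1, Iigp1, Gbp7, Gbp9, Gbp5 and Gbp6. Gbp2 exceeded Igtp in 6 of 6 libraries, and the same held for Irgm1 over Iigp1, Gbp7 over Gbp9, Gbp9 over Gbp5 and Gbp5 over Gbp6. Neighbours whose order varied between libraries were Igtp and Gbp3 (3 of 6), Gbp3 and Irgm2 (5 of 6), Irgm2 and Irgm1 (2 of 6), and Iigp1 and Gbp7 (3 of 6). The lengths cover all annotated isoforms, which lowers the value of a gene that uses a short one.

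**Figure D4:**
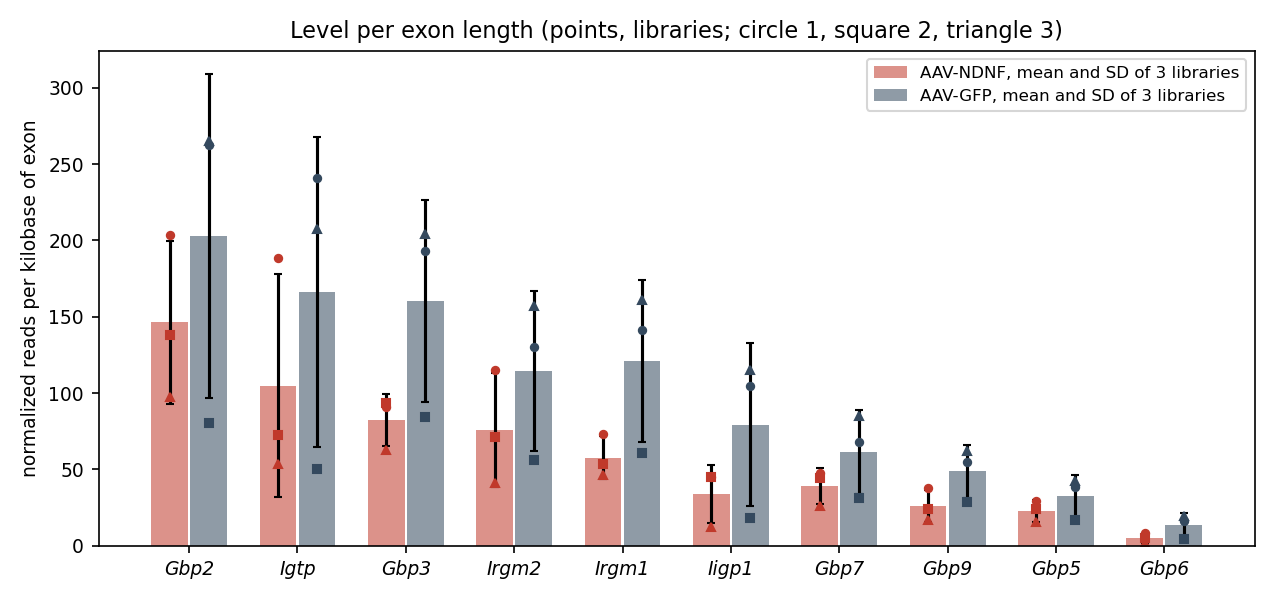
Normalized reads per kilobase of annotated exon for the 10 genes in order of their mean over the 6 libraries, with AAV-NDNF bars (red) left of AAV-GFP bars (grey blue), error bars of 1 SD over 3 libraries and points for single libraries. Gbp2 is highest and Gbp6 lowest, and in every gene the error bars of the groups overlap.

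Upstream genes had a median difference nearer to 0. Of 13 genes for interferons, receptors and signalling, 12 were tested, with a median log2 fold change of −0.26. At an unadjusted p under 0.05, 3 were lower and 0 higher, against 3.53% of all genes lower and 1.15% higher. Stat2, a subunit of the factor that binds interferon-stimulated response elements, stood at 738, 615 and 399.8 after AAV-NDNF, against 1076, 608 and 1009 after AAV-GFP, and Irf9, which gives that factor its contact with DNA, at 390.2, 378 and 275 after AAV-NDNF, against 607, 446 and 599 after AAV-GFP. AAV-GFP library 2 was thus the lowest control for Stat2 as well, within the AAV-NDNF range, while for Irf9 every AAV-NDNF library lay below every control. Irf1, the factor that interferon gamma induces to drive GBP transcription, stood at 204, 144 and 104 after AAV-NDNF, against 254, 124 and 229.6 after AAV-GFP (log2 fold change −0.41, limma adjusted p = 0.997). Ifng itself was absent from the deposited table and so was not analysed here.

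Of 19 other genes of the GBP, IRG and very large inducible GTPase families, 16 were tested. All 16 log2 fold changes were below 0, as were 49.9% of those of all genes, and their median was −1.38. Of these 5 were lower at an unadjusted p under 0.05 and 0 higher, against 3.53% of all genes lower and 1.15% higher. Tgtp2, an effector also called Irgb6, stood at 28.6, 22.5 and 6.57 after AAV-NDNF, against 92.8, 17.6 and 85.4 after AAV-GFP. Ifi47, also called Irgd, stood at 29.4, 21.4 and 30.7 after AAV-NDNF, against 105 and 141 in AAV-GFP libraries 1 and 3 and 21.5 in AAV-GFP library 2. Gm5431 stood at 12.6, 9.01 and 2.19 after AAV-NDNF, against 37.5, 17.6 and 44.9 after AAV-GFP, without overlap. Gvin1 (a very large inducible GTPase) and Gm12185 were the other 2 of the 5, both at low counts. Gvin1 stood at 9.25, 2.25 and 2.19 after AAV-NDNF, against 17.9, 11.7 and 15.0 after AAV-GFP. Gm12185 stood at 0.84, 5.63 and 3.29 after AAV-NDNF, against 27.7, 10.7 and 12.8 after AAV-GFP. Gbp4 stood at 95, 99.1 and 55.9 after AAV-NDNF, against 154, 36.2 and 134 after AAV-GFP, and Irgq, a divergent relative, averaged 1422 ± 243 after AAV-NDNF and 1509 ± 130 after AAV-GFP (SD, n = 3 each). The other tested relatives, Gbp10, Gbp11, Tgtp1, Gm12250, Gm4841, Gm4951, F830016B08Rik, 9930111J21Rik1 and 9930111J21Rik2, did not reach that limit.

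Other targets of the 2 interferon classes were counted alongside. Of 17 interferon gamma targets 16 were tested, with 5 lower at an unadjusted p under 0.05, 0 higher and a median log2 fold change of −0.57. Over all genes 3.53% were lower and 1.15% higher at that limit. Psmb8, an immunoproteasome subunit, stood at nearly 1 level in the AAV-NDNF libraries, 124, 124 and 123, against 284, 120.2 and 313 after AAV-GFP. Of 20 type I targets 20 were tested, with 13 lower and 0 higher at the same limit and a median of −1.47. Oasl1, an antiviral regulator, stood at 21, 31.5 and 17.5 after AAV-NDNF, against 104, 55.7 and 172 after AAV-GFP (limma adjusted p = 0.351). Its groups did not overlap, as in 5 of the 20 and in 5.50% of all genes lower. AAV-GFP library 2 was the lowest control for 20 of 20 type I targets and for 39.8% of all genes. All 3 AAV-NDNF libraries lay below both other controls for 20 of 20 and for 10.5% of all genes. That count sets aside the low control and so carries no test. Neither list had a gene called over all genes, and whether the lists differ from the 10 genes was not tested.

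**Figure D5:**
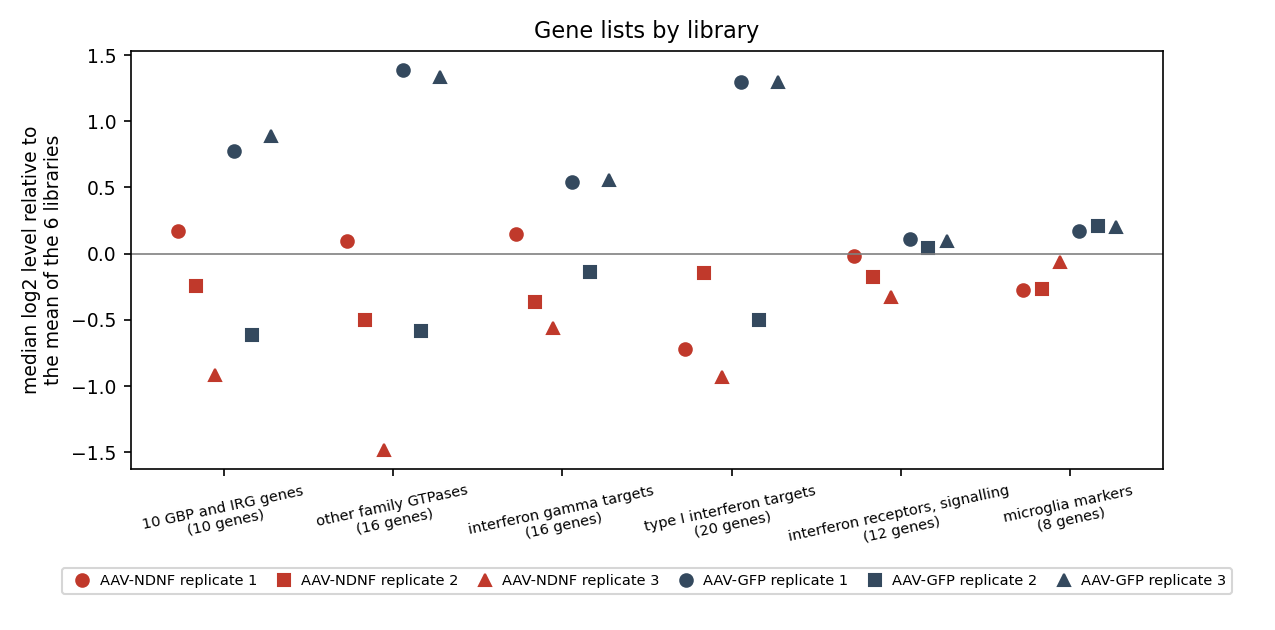
Median log2 level of each gene list in each library, relative to the mean of the 6 libraries for each gene; AAV-NDNF libraries are red and AAV-GFP libraries dark blue, with circles, squares and triangles for replicates 1, 2 and 3. For the 10 genes the medians are 0.17, −0.25 and −0.91 after AAV-NDNF, against 0.77, −0.61 and 0.89 after AAV-GFP, and the microglia markers lack the low AAV-GFP library 2.

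Lists of partner genes had medians near 0. Of 8 inflammasome and pyroptosis genes 0 passed an unadjusted p of 0.05, with a median log2 fold change of −0.11. Pycard, the inflammasome adaptor, stood at 84.9, 84.5 and 88.7 after AAV-NDNF, against 106, 110.4 and 138 after AAV-GFP, and Gsdmd, the pore-forming substrate of inflammatory caspases, at 98.4, 78.8 and 76.7 after AAV-NDNF, against 103, 124 and 113 after AAV-GFP. These 2 of the 8 were without overlap, against 5.50% of all genes lower, though neither passed the test. Of 10 genes of the ATG conjugation machinery, which in mice helps place IRGs and GBPs on parasite vacuoles, 0 passed, with a median of 0.030.

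Markers of the cells that could hold these transcripts were summed per library. The 8 microglia markers summed to between 12954 and 15389 after AAV-NDNF and between 18085 and 19488 after AAV-GFP, and 5 of 8 were lower at an unadjusted p under 0.05 (3.53% of all genes). For 6 of the 8 every AAV-NDNF library lay below every control, against 5.50% of all genes. In AAV-GFP library 2 the microglia sum was 18085, against 19179 and 19488 in AAV-GFP libraries 1 and 3, whereas the 10 genes summed to 1703 in AAV-GFP library 2, against 4705 and 5137 in the others. In AAV-NDNF libraries 1 to 3 the microglia sum was 12954, 13218 and 15389, and the 10 genes summed to 3009, 2194 and 1394. In a bulk library fewer cells of a type and less RNA per cell cannot be told apart. Of 10 T and NK cell markers 3 were tested, none was at 0 in all libraries, and the sum was 86.6, 81.1 and 82.2 after AAV-NDNF, against 211, 93.8 and 149.5 after AAV-GFP. For the 7 markers of border macrophages and monocytes, of which 4 were tested, the sum was between 90.1 and 112 after AAV-NDNF and between 105 and 195 after AAV-GFP. The 6 endothelial markers summed to between 3111 and 4132 after AAV-NDNF and between 3717 and 4140 after AAV-GFP, and the 6 astrocyte markers to between 138398 and 163542 after AAV-NDNF and between 161841 and 204940 after AAV-GFP. Most of the astrocyte sum was Gfap, at 75104 to 89726 after AAV-NDNF and 98168 to 128814 after AAV-GFP. Its log2 fold change was −0.36, where the median of the 6 astrocyte markers was −0.13. The 5 motor neuron markers, which mark the ventral horn, summed to between 5003 and 5614 after AAV-NDNF and between 4766 and 5831 after AAV-GFP. The part of these markers in the differences above was not tested.

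Among 15070 other genes with a mean of at least 30 normalized counts, those whose profile over the 6 libraries lay nearest to the median profile of the 10 were listed. Nearness was the root mean square difference of log2 levels, each centred on its mean over the 6 libraries. The nearest were Doc2b (0.180), Slfn9 (0.189), Trim12a (0.189), Parp10 (0.191), 4930481A15Rik (0.204) and Helz2 (0.209), where the median candidate lay at 0.697. The 10 genes themselves lay between 0.135 and 0.552 from that median profile. Parp10, an ADP-ribosyltransferase, stood at 106, 77.7 and 59.2 after AAV-NDNF, against 154, 80.1 and 156 after AAV-GFP, and Helz2, a helicase, at 237, 194 and 128 after AAV-NDNF, against 368, 168 and 302 after AAV-GFP.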

How the data were processed

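The labels' protocols describe poly-A libraries read on a NovaSeq. Tools named in the submitters' processing notes are HISAT2, HTSeq, cutadapt and DESeq2, with the build mm10; the sources used here give no versions, annotation or strand setting. The per-library columns the authors deposited are a normalized signal, read counts divided by 1 size factor per library: 100% of values were whole multiples of the value of 1 read (tolerance 0.001), so whole reads were recovered. Other columns hold the authors' DESeq2 log2 fold changes, test score (Wald) and raw and adjusted p-values, per the file headers. Genes that reached 10 normalized counts in 3 or more libraries were tested with limma (3.58.1; mean-variance trend, robust) on log2(value + 1), two-sided, with Benjamini-Hochberg adjustment over 17480 genes and a call at an adjusted p under 0.05. The alternatives included edgeR (4.0.16) and DESeq2 (1.42.0) on recovered reads. The scripts were tested on simulated counts.

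The genes, lists and tests were chosen with earlier results of these data known, and the lists overlap (Irf1 and Socs1 are in 2). Every one of the 10 genes is named; of other lists up to 4 genes with the smallest p, plus Irf1, Ndnf and tested relatives, may be named, and 1 gene is not reported here. All pairs of libraries differed by more than counting noise (smallest chi-square per degree of freedom 4.09, for AAV-GFP libraries 1 and 3). The largest was 40.9, for AAV-NDNF libraries 1 and 3. AAV-GFP library 2 differed from AAV-GFP libraries 1 and 3 by 20.3 and 21.3, and from AAV-NDNF library 1 by 15.3. Symbols matched GENCODE M21 for 27638 of 28162 genes. Precision is given by the spread between 3 libraries a group. R was 4.3.3 and plots used matplotlib 3.10.9.
Whether the libraries labelled biological replicates came from separate mice is not stated further, so p-values measure the spread between these libraries.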

Additional observations from a re-analysis of the deposited data

How the results depend on the processing

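Every one of the 10 log2 fold changes stayed below 0 under all alternatives run: upper quartile and TMM scaling, no filter on low values or a minimum of 50 normalized counts, pseudocounts of 0.5 and 8, edgeR, DESeq2, the replicate block and each library left out. The count of genes called, 0 in limma, was 3 with no filter on low values, 6 with the replicate block and 55 with DESeq2 on recovered reads; DESeq2 put 5 of the 10 genes at an unadjusted p under 0.05 in place of 3 (3.40% of all genes lower). With 1 library left out the genes called numbered 0 to 43, those of the 10 at an unadjusted p under 0.05 numbered 0 to 10, and genes of the 10 without overlap between the groups numbered 0 to 10 (10.5% of all genes lower at the highest); the median log2 fold change of the 10 lay between −1.26 and −0.36. The highest of each count came without AAV-GFP library 2, the lowest control for each of the 10 genes, so its omission favours the counts over those 10 by construction. Deviations of same-numbered libraries correlated at −0.090, 0.048 and 0.080 across genes, and those of differently numbered libraries at −0.150 to 0.125. With 3 libraries a group these values cannot decide whether the replicate numbers pair the libraries. The limma fit with the block called none of the 10 genes (smallest adjusted p 0.504, Irgm1). With all 6 libraries the unadjusted 95% interval of each of the 10 genes spanned more than 1 log2 unit. How depth or more libraries would change these results was not tested.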
